A study of Mus musculus with 8 samples.

Results

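The mitosis and spindle genes are 56 genes whose products carry a cell through division, from the kinase that starts mitosis to the condensins that compact chromosomes. They were taken from a list of gene symbols, and all 56 had reads in at least 1 of the 2 RNA-seq libraries, which together listed 13704 genes. The rule that chose them uses no measured value, but the list was chosen with earlier results of these data known. The libraries were made from Th17 cells, the IL-17-producing helper T cells, differentiated in vitro from naive CD4+ T cells over 3 days. Both cultures received TGF-β at 0.5 ng/ml together with IL-6 at 20 ng/ml, followed by anti-CD3 re-stimulation. The WT library came from C57BL/6 mice labelled wild type. The KO library came from C57BL/6 mice labelled TRIM28fl/flxCD4cre, in which loxP-flanked *Trim28* alleles are removed by Cre under the *Cd4* promoter, hence in all T cells that pass through the CD4-expressing stage of the thymus and not in Th17 cells alone. The age of the mice and the number pooled for these libraries are not given in the sources used here. There was 1 library per genotype, so no difference below has a replicate check.

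Entry into mitosis is driven by the kinase CDK1 bound to cyclin B, which CDC25 phosphatases switch on and which works beside the Polo and Aurora kinases. Kinetochores then attach chromosomes to spindle microtubules, the spindle assembly checkpoint holds the cell until attachment is complete, and the anaphase-promoting complex (APC/C) with CDC20 marks cyclin B and securin for destruction. Many of these genes are transcribed in a wave in G2 and M phase, under the DREAM and MuvB complexes with B-MYB and FOXM1, through promoter sequences called the cell cycle genes homology region (CHR) and through CCAAT boxes bound by NF-Y. Activated T cells divide rapidly, so cultures of this kind carry transcripts of the whole program.

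The promoters of these genes shared letters that the choice of the list did not use. RefSeq promoter windows on GRCm38.p6, taken here as the 250 bases before the start site, were available for 48 of the 56 genes, as 53 windows. They were searched on both strands for the CHR letters TTTGAA or TTTAAA and for CCAAT. A CHR was found in 25 of the 53 windows (47.2%), against 17.4% of the 10765 windows of all genes tested and 25.2% of all 32851 windows of this length. CCAAT was found in 77.4% of the members' windows, against 35.6% for the genes tested. Both stood in 41.5% of the members' windows and in 6.47% of those of the genes tested, and 49.1% against 13.5% held CCAAT at 2 or more places. The promoters of *Plk1* and *Ccnb1*, the members with a CHR that had the highest log2 fold changes, and of *Prc1* and *Mki67*, those with the lowest, are printed 5′ to 3′ to show these letters, with the matches in capitals (ATTGG is CCAAT on the other strand). They lie at chr7:122159185-122159434 (plus strand), chr13:100786487-100786736 (minus), chr7:80294226-80294475 (plus) and chr7:135716380-135716629 (minus).
Plk1: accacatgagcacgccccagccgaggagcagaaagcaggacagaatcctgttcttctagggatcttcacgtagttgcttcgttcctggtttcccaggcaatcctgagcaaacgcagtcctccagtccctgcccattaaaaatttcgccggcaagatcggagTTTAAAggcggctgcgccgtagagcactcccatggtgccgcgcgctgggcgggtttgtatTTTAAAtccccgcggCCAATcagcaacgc
Ccnb1: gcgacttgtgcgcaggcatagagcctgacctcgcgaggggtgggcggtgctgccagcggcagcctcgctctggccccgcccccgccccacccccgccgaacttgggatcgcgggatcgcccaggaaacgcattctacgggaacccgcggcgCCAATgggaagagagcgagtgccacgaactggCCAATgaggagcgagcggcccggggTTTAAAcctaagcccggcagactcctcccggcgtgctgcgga
Prc1: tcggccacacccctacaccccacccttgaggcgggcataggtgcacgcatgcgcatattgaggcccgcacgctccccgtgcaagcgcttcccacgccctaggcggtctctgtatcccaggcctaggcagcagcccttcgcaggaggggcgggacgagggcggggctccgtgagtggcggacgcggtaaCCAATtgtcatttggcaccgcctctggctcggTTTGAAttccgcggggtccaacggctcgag
Mki67: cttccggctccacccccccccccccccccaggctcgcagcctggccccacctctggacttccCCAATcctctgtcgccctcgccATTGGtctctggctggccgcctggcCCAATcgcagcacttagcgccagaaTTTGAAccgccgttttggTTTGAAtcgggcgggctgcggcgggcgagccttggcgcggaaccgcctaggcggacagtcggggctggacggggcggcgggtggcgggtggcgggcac
In these windows, TTTAAA began 89 and 29 bases before the start of *Plk1* and 42 bases before that of *Ccnb1*, while TTTGAA began 30 bases before that of *Prc1* and 116 and 98 bases before that of *Mki67*. A match of letters is a description of the sequence, not a bound site. The low ranks of *Prc1* and *Mki67* are not firm. *Prc1* had only 11 WT and 10 KO reads, with an interval from −1.43 to 1.34. *Mki67* was at 0.47 with the correction for transcript length described below. The 23 member genes with a CHR had a median log2 fold change of 0.68 between the KO and WT libraries and the 22 tested member genes without one a median of 0.63.

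The WT library held 6650066 reads assigned to genes and the KO library 6185108. *Trim28* itself went from 4485 WT reads to 180 KO reads, at log2 fold change −4.53. Counts are also given as CPM, reads per 1000000 reads of the library, and, to compare levels between genes, as RPKM, CPM per kilobase of the longest annotated transcript. A log2 fold change is that of CPM in the KO library over the WT library, with 0.5 added to each count. Its 95% interval is the exact Clopper-Pearson interval, which covers only the error of counting and no variation between cultures or libraries. The interval may be too narrow even for that error, because without molecular identifiers reads need not be separate molecules. A gene was called higher or lower at an adjusted p under 0.05 (exact binomial test, Benjamini-Hochberg adjustment over the 10881 genes that had 10 or more reads in all) and a change of at least 2-fold. This test compares the libraries, not the genotypes. The helper T-cell markers *Cd4* (7904 and 6598 reads in WT and KO) and *Cd3e* (4407 and 4778 reads) were high in both. The other helper T-cell markers with reads were *Cd3g* (2046 and 2155), *Lck* (555 and 439) and *Cd28*. *Cd28* had 8897 and 5191 reads, at log2 fold change −0.67. Of the Th17 markers, *Il17a* had 2226 and 381 reads, and *Ccr6* and *Il1r1* had under 10 in each. The B-cell markers summed to 75 and 44 reads, those of CD8+ T cells to 53 and 29 and those of myeloid cells to 1 and 3, while NK-cell and erythroid markers were listed in neither library.

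Mitosis and spindle genes as a group were higher in the KO library. Their summed reads were 45384 in WT and 65185 in KO, that is 6825 against 10539 CPM, a ratio of 1.54 (95% interval 1.53 to 1.56). Of the 53 members with enough reads to be tested, 13 were called higher, against 2.57% of all genes tested, and 0 were called lower, against 5.53% of all genes. The log2 fold change was above 0 in 50 of the 53, against 48.6% of all genes, and its interval lay above 0 in 44, against 23.5%. No tested member had an interval below 0. Whatever their p, 15 members were at least 2-fold higher (3.75% of all genes) and 0 at least 2-fold lower (7.94%). At least 1.5-fold with an interval above 0, the members numbered 34 (7.5% of all genes), and 0 were 1.5-fold lower with an interval below 0 (12.5%, and 25% at any size of change). The median log2 fold change was 0.68, with the middle members between 0.53 and 1.09 (quartiles), while the median over all genes was −0.02. In libraries of whole cultures, more dividing cells and more of these transcripts per cell cannot be told apart. The B-cell, CD8+ T-cell and myeloid markers given above had few reads in both libraries, and the part of the lower *Il17a* reads in this result was not tested. On division, the paper reports a mild proliferation defect of KO CD4+ T cells under weak T-cell receptor stimulation, and none that was obvious under strong stimulation. The relation of that separate assay to these reads was not tested.

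**Figure D1:**
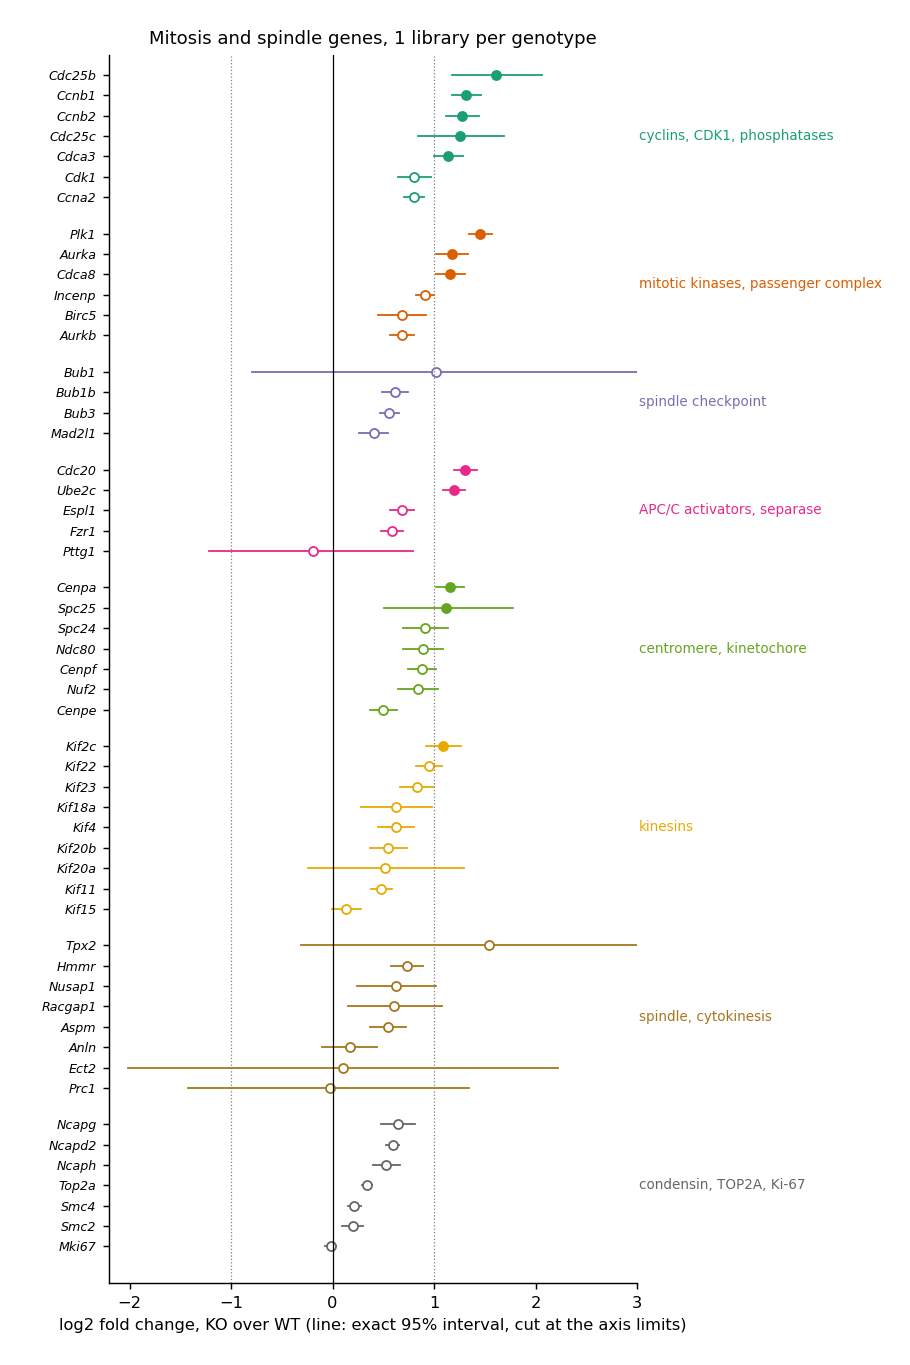
Log2 fold change (KO over WT, 1 library each) of the 53 tested mitosis and spindle genes, by role, with exact 95% intervals for counting error. Filled points are the 13 genes called higher, dotted lines mark 2-fold changes, and *Pttg1*, *Prc1* and *Mki67* are the points below 0, with intervals that include 0. Under other scalings or corrections *Prc1* and *Mki67* reached 0 or above.

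The group with the highest median log2 fold change, 1.26, was the engine of mitotic entry. *Ccnb1* (cyclin B1, the partner of CDK1; chr13:100778739-100786486) went from 582 WT reads to 1348 KO reads, and its log2 fold change was 1.32 (95% interval 1.17 to 1.46). *Ccnb2*, the second B-type cyclin, had 435 WT and 982 KO reads, at log2 fold change 1.28 (1.11 to 1.45). Both B-type cyclins thus had nearly the same fold change, with overlapping intervals. *Cdc25b*, a phosphatase that removes the inhibitory phosphates from CDK1, had 59 and 168 reads and the highest value of the called members, 1.61 (1.18 to 2.07). *Cdc25c*, its relative, had 70 WT and 156 KO reads, at log2 fold change 1.26. *Cdca3*, an F-box-like adaptor that helps to destroy the CDK1 inhibitor WEE1, had 629 WT and 1291 KO reads, at log2 fold change 1.14. All 5 of these genes, of 7 tested in the group, were called higher, against 2.57% of all genes tested. *Cdk1* itself went from 493 reads to 801 at 0.80 (0.64 to 0.97), under 2-fold. *Ccna2* (cyclin A2, active from S phase to early mitosis) had 1383 WT and 2240 KO reads, at log2 fold change 0.80 (0.70 to 0.90). The intervals of *Cdk1* and *Ccna2* lay below those of *Ccnb1* and *Ccnb2*, but with the correction for transcript length described below, that of *Cdk1* (0.77 to 1.10) overlapped both of theirs. Together the 7 genes of this group took 549 CPM in WT and 1129 CPM in KO, a ratio of 2.06 (1.98 to 2.14).

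The mitotic kinases and the chromosomal passenger complex (Aurora B with INCENP, survivin and borealin) showed a ratio of the same size, 2.06 (1.99 to 2.13), from 721 CPM in WT to 1485 CPM in KO. *Plk1* (Polo-like kinase 1, needed for mitotic entry, centrosome maturation and chromosome separation; 10 exons at chr7:122159435-122169884) had 922 reads in WT and 2356 in KO, a log2 fold change of 1.46 (1.35 to 1.57). *Aurka* (Aurora A, the kinase of centrosomes and spindle poles) had 499 WT and 1050 KO reads, at log2 fold change 1.18. Its exons share 212 bases with *Cstf1* on the opposite strand, which had 484 and 644 reads. The members of the passenger complex were unequal. *Cdca8* (borealin) had 608 and 1264 reads and was called higher, with a log2 fold change of 1.16 (1.02 to 1.30). *Incenp*, the scaffold of the complex, had 1540 WT and 2689 KO reads, at log2 fold change 0.91 and an interval that began at 0.82. *Aurkb*, the kinase subunit, had 974 WT and 1455 KO reads, at log2 fold change 0.68 (0.57 to 0.80). *Birc5* (survivin, which brings the complex to centromeres) had 250 WT and 374 KO reads, at log2 fold change 0.68 (0.45 to 0.92). The interval of *Aurkb* thus lay wholly below those of *Cdca8* and *Incenp*, which bind it in 1 complex.

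Genes of the spindle assembly checkpoint had lower values. None of the 4 tested was called (2.57% of all genes were called higher), although 3 had intervals above 0 (23.5% of all genes did). The median log2 fold change of the 4 was 0.59. *Bub1b* (BUBR1, a subunit of the inhibitor of APC/C) had 877 reads in WT and 1251 in KO and a log2 fold change of 0.62 (0.49 to 0.74). *Bub3*, its partner at kinetochores, had 1535 WT and 2104 KO reads, at log2 fold change 0.56. *Mad2l1* (MAD2, which captures CDC20) had 701 and 863 reads and the lowest value of these, 0.40 (0.26 to 0.55). With the correction for transcript length described below, *Mad2l1* was at 0.80, above *Bub1b* at 0.66 and *Bub3* at 0.64. *Bub1*, with 4 and 8 reads, and *Ttk* (MPS1, the kinase at the top of the checkpoint), with 2 and 1, had too few reads to show a difference.

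On the exit side, the genes around APC/C were unequal. *Cdc20*, the activator that the checkpoint holds back, had 864 reads in WT and 1990 in KO, a log2 fold change of 1.31 (1.19 to 1.42), and was called higher. *Ube2c*, the E2 enzyme that supplies ubiquitin to APC/C, had 1025 and 2188 reads and was called higher at 1.20 (1.09 to 1.31). *Fzr1* (CDH1, the activator that replaces CDC20 late in mitosis and in G1) had 1146 WT and 1603 KO reads, at log2 fold change 0.59 (0.48 to 0.70), an interval wholly below that of *Cdc20*. *Espl1* (separase, the protease that opens cohesin) had 975 WT and 1458 KO reads, at log2 fold change 0.68. *Pttg1* (securin, its inhibitor) had only 21 and 17 reads, and the interval of its log2 fold change of −0.19 ran from −1.21 to 0.79. The group's reads were dominated by the first 4 genes, and their ratio in all was 1.94 (1.86 to 2.01).

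**Figure D2:**
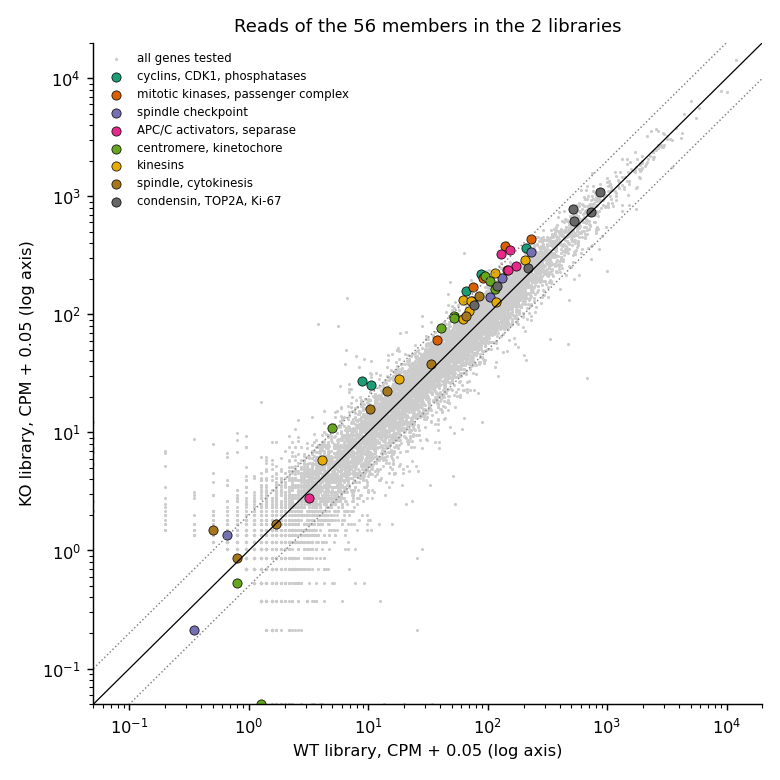
CPM of the 56 mitosis and spindle genes in the WT library (x) and the KO library (y), on log axes with 0.05 added, coloured by role over all genes tested (grey). The solid line marks equal CPM and the dotted lines 2-fold differences; most members lie between the solid and the upper dotted line, and *Cenpk*, with 0 KO reads, lies on the lower edge.

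Among centromere and kinetochore genes, all 7 tested had intervals above 0 (23.5% of all genes did) and the median log2 fold change was 0.89. *Cenpa*, the histone H3 variant that marks centromeres, had 633 reads in WT and 1313 in KO and was called higher at 1.16 (1.02 to 1.30). The 4 genes of the NDC80 complex, which holds the microtubule end, were close to each other. *Ndc80* had 345 WT and 594 KO reads, at log2 fold change 0.89 (0.70 to 1.08). *Nuf2* had 349 and 581 reads and a value of 0.84. *Spc24* had 272 and 477 reads and a value of 0.91, and *Spc25*, with 33 and 67 reads, was called higher at 1.12 (0.50 to 1.77). The 4 intervals overlapped, so the call of *Spc25* alone does not set it apart from its partners. *Cenpf* (a large protein of the outer kinetochore) had 693 WT and 1187 KO reads, at log2 fold change 0.88 (0.75 to 1.02). *Cenpe*, the kinetochore kinesin, had 770 and 1014 reads and the lowest value of the group, 0.50 (0.36 to 0.64), but was at 0.91 with the length correction, above *Spc24* at 0.72. *Cenpm* had 5 and 3 reads and was not tested. *Cenpk*, a subunit of the inner kinetochore, had 8 reads in WT and 0 in KO, so it was also not tested. Set against a floor of 3 reads in the KO library, *Cenpk* was 2.48-fold lower, and the interval of its log2 fold change, which counts the error on the WT reads too, ended at −0.67, in the opposite direction to the 7 tested genes of the group.

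All 9 mitotic kinesins, the motors that move chromosomes and slide microtubules, had log2 fold changes above 0 (48.6% of all genes did). Of these, 1 was called higher, against 2.57% of all genes. *Kif2c* (MCAK, which takes microtubule ends apart at centromeres) had 416 reads in WT and 823 in KO and was called higher at 1.09 (0.92 to 1.26). *Kif22* (the chromosome-arm motor KID) had 766 WT and 1375 KO reads, at log2 fold change 0.95 (0.82 to 1.08). *Kif23* (MKLP1, a motor of the central spindle) had 481 and 798 reads and a value of 0.83. The other 6 motors had lower values, but this order changed with the correction for transcript length described below. *Kif18a* was then at 0.96, above *Kif23* at 0.85 and below *Kif22* at 0.99, and *Kif4* was at 0.83. The values that follow are uncorrected. *Kif18a*, which damps chromosome movements, had 121 and 174 reads and a value of 0.63 (0.29 to 0.98), and *Kif4*, a chromosome-bound motor, had 460 and 659 reads and a value of 0.62. *Kif11* (Eg5, which pushes the spindle poles apart) had 1375 and 1784 reads and a value of 0.48 (0.38 to 0.58). *Kif15*, which can also drive the poles apart, had 776 and 794 reads, and the interval of its log2 fold change of 0.14 ran from −0.01 to 0.28. The interval of *Kif15* thus lay below that of *Kif11*. *Kif20b*, a motor of late cytokinesis, had 414 and 564 reads and a value of 0.55 (0.36 to 0.74). *Kif20a*, a motor of the central spindle, had 27 and 36 reads and a value of 0.51 with an interval that included 0. Exons of *Kif20a* share 2365 bases with *Cdc23* on the opposite strand.

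The spindle and cytokinesis factors included 0 called genes (2.57% of all genes were called higher) and several with few reads. *Hmmr*, a microtubule-binding protein of the spindle poles, had 566 reads in WT and 876 in KO and a log2 fold change of 0.73 (0.58 to 0.89). *Aspm*, which focuses the spindle poles, had 441 and 599 reads and a value of 0.55 (0.37 to 0.73). *Nusap1*, a microtubule-stabilizing protein, had 96 and 138 reads and a value of 0.63, and *Racgap1*, a protein of the central spindle, had 69 and 98 reads and a value of 0.61 (0.15 to 1.08). These 4 values had overlapping intervals, all above 0. *Anln* (anillin, the scaffold of the contractile ring) had 223 WT and 233 KO reads, at log2 fold change 0.17, with an interval from −0.10 to 0.44. *Prc1* (the bundler of central spindle microtubules) had 11 and 10 reads, *Tpx2* (the activator of Aurora A on the spindle) had 3 and 9, and *Ect2* (a factor needed for cytokinesis) had 5 and 5. The intervals of these last 3 genes included 0, so no direction was detectable at this depth.

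The genes of chromosome structure had the lowest median log2 fold change of the 8 roles, 0.34, and included the members with the highest levels. *Top2a* (topoisomerase IIα, which untangles sister chromatids) had the highest level of all members, 166 RPKM in WT and 210 RPKM in KO. It had 5773 WT and 6781 KO reads, at log2 fold change 0.34 (0.29 to 0.39). The condensin ATPases shared by both condensin complexes differed little, with 1442 and 1541 reads of *Smc2* (log2 fold change 0.20) and 3534 and 3818 reads of *Smc4* (0.22, interval 0.15 to 0.28). The subunits found only in condensin I were higher. *Ncapd2* had 3457 WT and 4851 KO reads, at log2 fold change 0.59 (0.53 to 0.66). *Ncapg* had 514 and 747 reads and a value of 0.64 (0.48 to 0.81), and *Ncaph* had 794 and 1066 reads and a value of 0.53 (0.40 to 0.66). The intervals of these 3 subunits lay above those of *Smc2* and *Smc4*, but with a correction for transcript length, described below, *Ncaph* and *Smc2* were both at 0.45. *Mki67* (Ki-67, the coat of mitotic chromosomes that is used as a marker of proliferation) had 4918 and 4513 reads, and its log2 fold change of −0.02 had an interval from −0.08 to 0.04 and was 0.00 under TMM scaling. The 7 genes of this group took 0.307% of all reads in WT and 0.377% in KO, a ratio of 1.23. Without them the median log2 fold change of the members was 0.80.

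**Figure D3:**
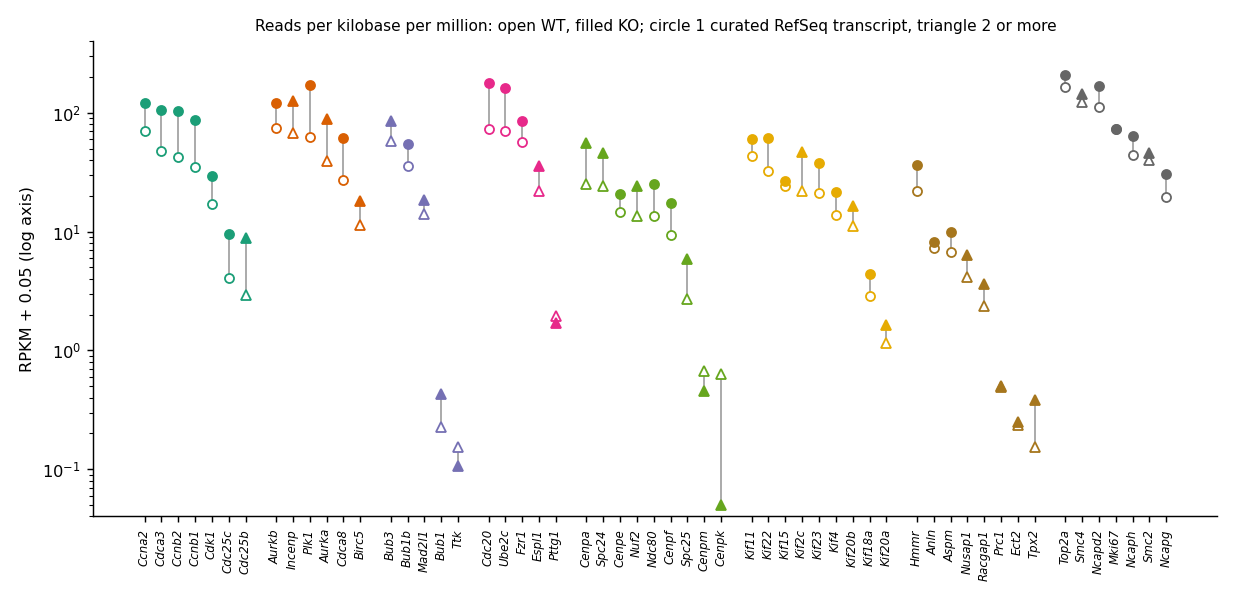
RPKM of each member on a log axis (with 0.05 added), in the WT library (open) and the KO library (filled), by role and in order of WT level. Circles are genes with 1 curated RefSeq transcript and triangles those with 2 or more; the 9 members with under 100 reads are all triangles.

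Transcript length moved with these differences. Over all genes tested, the log2 fold change fell with the length of the longest transcript (Spearman's rank correlation −0.37 across 10792 genes). Across the 47 members with at least 100 reads it was −0.72, with all points from the same 2 libraries and genes that are not independent replicates. With transcripts under 3000 bases, 10 of 15 tested members were called higher and their median log2 fold change was 1.14, while the median of all genes of that length was 0.16 and 3.89% of them were called higher. From 3000 to 5000 bases, 3 of 28 members were called and the median was 0.63, against −0.06 and 1.81% called higher for all genes. Over 5000 bases, 0 of 10 were called and the median was 0.52, against −0.36 and 1.24% called higher for all genes. The members thus stood above the median of all genes in each of the 3 length classes.

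**Figure D4:**
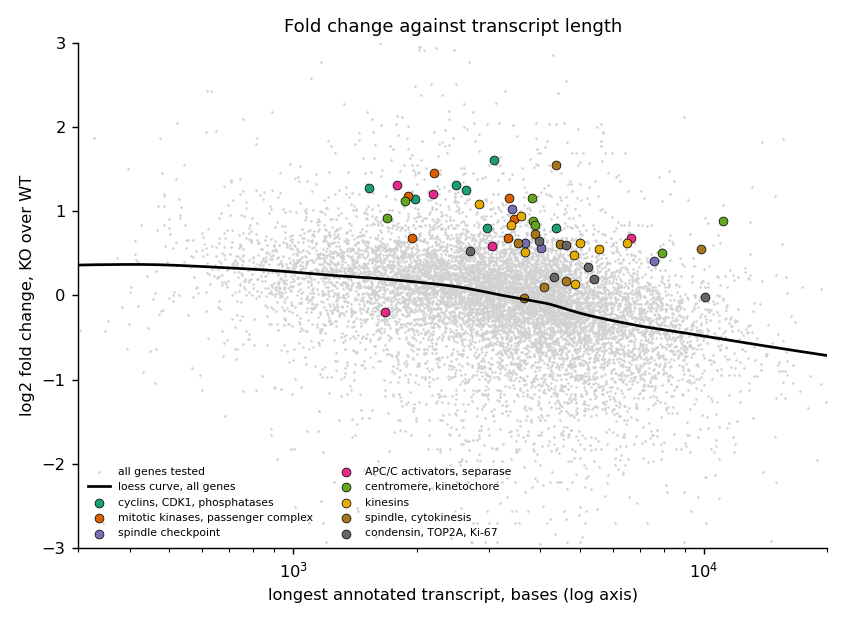
Log2 fold change (KO over WT) against the length of the longest annotated transcript (log axis), with the loess curve over all genes tested (black) and the mitosis and spindle genes coloured by role. Of the members, 52 of 53 lie above the curve, including the long transcripts *Mki67*, *Cenpf* and *Aspm*.

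With the loess curve on length taken off each fold change, the members' median was 0.83, 52 of 53 lay above 0 (50.3% of all genes did), 14 were called higher (2.46% of all genes were) and 0 lower (4.32%). *Cdca3* and *Spc25* then fell under 2-fold, at 0.98 and 0.94. *Cenpf*, *Espl1* and *Aspm* passed it, at 1.40, 1.03 and 1.02. *Mki67*, whose longest transcript has 10061 bases, moved from −0.02 to 0.47. The medians of the roles lay closer together after this correction, with values of 1.07 for the cyclin group, 0.97 for the kinases, 1.03 for the APC/C group, 0.94 for the kinetochore, 0.83 for the kinesins, 0.73 for the checkpoint, 0.70 for the spindle factors and 0.47 for chromosome structure. The part of the length trend in the differences between members was not tested further.

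The members with few reads shared an annotation feature. Each of the 9 members with under 100 reads over both libraries (*Bub1*, *Ttk*, *Pttg1*, *Cenpk*, *Cenpm*, *Kif20a*, *Tpx2*, *Prc1* and *Ect2*) had 2 or more curated RefSeq transcripts. All 30 members with 1 curated transcript had at least 100 reads. Median levels were 33.6 RPKM in WT and 60.4 RPKM in KO for members with 1 transcript, and 7.64 and 12.6 RPKM for the 26 with more. Over all genes tested, 22.7% of those with 1 transcript and 37.6% of those with 2 or more had under 100 reads. The deposited counts are headed as unique reads per gene. How reads that fit several transcripts or genes were counted is not otherwise given in the sources used here. The part of this annotation feature in the low values was not tested. The directions did not rest on these genes, since 46 of the 47 members with at least 100 reads had a log2 fold change above 0 and all 13 calls were among them. *Ccnb1*, *Ccnb2*, *Kif22* and *Kif4* each have an annotated copy elsewhere in the genome that was listed in neither library, so reads shared with the copies would be uncertain. Exons of 14 members overlap another annotated gene, on the opposite strand for 13, and reads of such pairs cannot be told apart where strand was not used in counting.

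Other genes of mitosis, from a second list of 123 genes with reads, lay mostly in the same direction with a lower median. Of its 118 tested genes, 6 were called higher (5.08%, against 2.57% of all genes) and 2 lower (against 5.53% of all genes). A log2 fold change above 0 was found in 97 (82.2%, against 48.6% of all genes), and the median was 0.31. *Shcbp1* (a midbody protein) had 186 reads in WT and 493 in KO and the highest value, 1.51 (1.26 to 1.76). *Cks1b* (a small subunit of cyclin-dependent kinases) had 335 and 728 reads and a value of 1.22, and *Ccnf* (cyclin F, a substrate adaptor of ubiquitin ligases) had 685 and 1469 reads and a value of 1.20. *Nek2* (a kinase that separates centrosomes) had 337 and 673 reads and a value of 1.10. The kinetochore gene *Cenpn*, with 103 and 207 reads, and the condensin II gene *Ncaph2*, with 17 and 34, were the other genes called higher. The genes called lower had few reads, with 13 and 2 of the kinesin gene *Kif14* and 17 and 3 of the spindle gene *Psrc1*. Of 15 tested genes for APC/C subunits, for the E2 enzyme *Ube2s* and for the APC/C inhibitor *Fbxo5*, 0 were called. Their values ran from −0.16 (*Anapc1*, 1943 and 1621 reads, 0.29 with the length correction) to 0.97 (*Anapc15*, 128 and 234 reads).

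Cohesin genes, which hold sister chromatids together from S phase on, had a median log2 fold change of 0.07 (0.27 with the length correction). They ran from *Wapal*, a factor that releases cohesin (1379 reads in WT and 796 in KO, −0.69, and −0.36 with the length correction), to *Cdca5* (sororin, which protects cohesin; 379 and 679 reads, 0.94). Of 10 tested genes for regulators of the mitotic wave (FOXM1, B-MYB, DREAM and NF-Y), 7 had intervals above 0, against 23.5% of all genes. The median of the 10 was 0.35, and 0 were called, where 2.57% of all genes were called higher and 5.53% lower. The lowest was *Nfya*, a subunit of NF-Y, with 23 and 14 reads, a value of −0.59 and an interval that included 0. *Foxm1* had 1268 WT and 1709 KO reads, at log2 fold change 0.54 (0.43 to 0.64), and *Mybl2* (B-MYB) had 927 and 1260 reads and a value of 0.55 (0.42 to 0.67). The kinases that inhibit CDK1 differed from each other, with 405 and 320 reads of *Wee1* (−0.23, interval −0.45 to −0.02) and 587 and 902 reads of *Pkmyt1* (0.72, interval 0.57 to 0.88). *Cdc25a*, the CDC25 phosphatase that acts mainly at the entry into S phase, had 630 WT and 483 KO reads, at log2 fold change −0.28 (−0.45 to −0.11), whereas *Cdc25b* and *Cdc25c* were called higher.

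Genes of the G1 and S phases gave a comparison with the earlier part of the cycle. By the exact binomial test (Benjamini-Hochberg adjustment), 0 of 26 tested were called higher and 1 lower, against 2.57% and 5.53% of all genes. A log2 fold change above 0 was found in 23 (88.5%, against 48.6% of all genes), and 17 had intervals above 0 (65.4%, against 23.5%). The median log2 fold change of the 26 was 0.33. *Tk1* (thymidine kinase) was the highest, with 93 reads in WT and 173 in KO and a value of 0.996, just under 2-fold. *Pcna*, the sliding clamp of replication, had 4086 WT and 5327 KO reads, at log2 fold change 0.49 (0.43 to 0.55), and *Mcm6*, a subunit of the replicative helicase, had 4458 and 4514 reads and a value of 0.12 (0.06 to 0.18). *Cdk6*, a kinase of G1 whose transcript is long, was called lower, going from 442 reads to 144 at −1.51 (−1.79 to −1.24). With the length curve taken off, *Cdk6* was at −0.98 and no longer called. Among the CDK inhibitors 0 of 4 were called (2.57% of all genes were called higher and 5.53% lower). *Cdkn2d* (p19) had 854 WT and 1532 KO reads, at log2 fold change 0.95, and *Cdkn1a* (p21) had 184 and 138 reads and a value of −0.31 with an interval that included 0. The difference between the mitosis and the G1 and S phase genes was described by these medians and counts and was not tested.

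**Figure D5:**
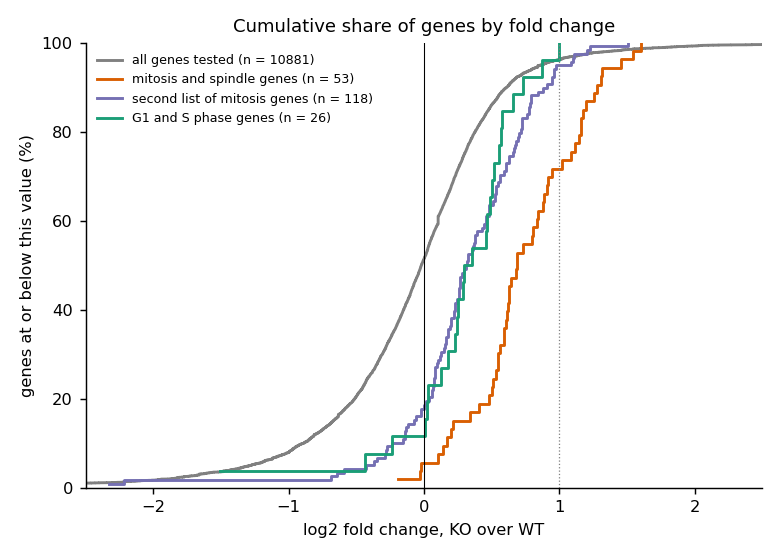
Cumulative share of genes (%) by log2 fold change (KO over WT) for the 53 tested mitosis and spindle genes, the 118 tested genes of the second list, 26 genes of the G1 and S phases and all 10881 genes tested. The curve of the mitosis and spindle genes lies farthest to the right, with a median of 0.68, against 0.31, 0.33 and −0.02 for the others.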

How the data were processed

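RNA was measured in 1 WT and 1 *Trim28* KO Th17 library. ChIP-seq samples were not analysed here. Of the Th17 markers, 1 is not reported here. The authors deposited raw counts, headed as unique reads per gene. The paper's methods name SOAP2 and mm10 for mapping. The submitters' processing notes name HTSeq, Bowtie, bcl2fastq and SICER 1.1 without roles. The annotation and the use of strand are not given in the sources used here. Beyond that heading, neither is the treatment of reads matching several genes or transcripts. Genes without reads are not listed, so the 1576 genes listed in 1 table only were given 0 reads in the other.

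The mitosis and spindle genes, the second list, the G1 and S phase list and the tests were chosen with earlier results of these data known. The genes named are members that were called or changed at least 1.5-fold with an interval that excluded 0, the extremes of each role, 10 core genes, and the called and extreme genes of the other lists. Others were named after their values were seen.

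Fold changes, exact binomial tests and intervals were computed in SciPy 1.17.1 on counts scaled to library totals, since with 1 library per genotype a quasi-likelihood fit in edgeR leaves no residual degrees of freedom. At these depths 3 reads are 0.451 CPM in WT and 0.485 CPM in KO. Of 13704 gene names, 59 matched no RefSeq name of GRCm38. Transcript lengths (GENCODE M21) covered 99.2% of genes tested. The loess curve on length (statsmodels 0.14.6, span 0.3) also entered the share expected under the test. Alternatives were TMM factors and an exact test with assumed variation (edgeR 4.0.16), DESeq2 1.42.0 size factors, upper-quartile scaling, 5 added to each count, other read filters, GC and level curves, and other thresholds.

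Simulated Poisson counts with these libraries' means and totals were used to test the code. They held no variation between libraries, as the exact binomial test assumes, so they cannot give the rate of false calls in real libraries. Of 200 genes changed 2.5-fold, 167 were called, with 5 of 10674 unchanged genes. Where only a length trend was simulated, 204 of 10895 genes were called uncorrected and 0 after correction.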

Additional observations from a re-analysis of the deposited data

How the results depend on the processing

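The scalings tried shifted log2 values by at most 0.02. The length curve moved the members' median from 0.68 to 0.83. No paired analysis was possible because there was 1 library per genotype, and for the same reason no replicate could be left out. The summed ratio of 1.54 became 1.57 with TMM factors. The shares of all genes given here are those under the same setting. By the exact test of edgeR, with variation between libraries (as a coefficient) set to 0.1, the members called higher were again 13 (against 1.87% of all genes). They became 2 at 0.2 (*Cdc25b* and *Plk1*, against 0.597% of all genes) and 0 at 0.4 (against 0.0643%). At 1.5-fold they were 34 (against 7.02%). Among genes with 1 curated RefSeq transcript, a restriction chosen after seeing the data like that to 100 reads, they were 8 of 30 (against 3.06%). With a filter of 1 read, 1 member (*Cenpk*) was called lower (against 4.52%). In the second list, the 6 genes called higher became 1 at a variation of 0.2, 0 at 0.4 and 33 at 1.5-fold (against 0.597%, 0.0643% and 7.02%). Its 2 genes called lower became 1 with the length or the level curve, at a variation of 0.1 and among genes with 1 transcript (against 4.14% to 5.4%). They became 0 with 10 reads in each library, 100 reads over both, an adjusted p under 0.001 (exact binomial test, Benjamini-Hochberg adjustment) or a variation of 0.2 or 0.4. In these settings 0.0827% to 4.12% of all genes were called lower. At 1.5-fold they were 4 (against 11.5%). Read and transcript filters, assumed variations and other thresholds leave log2 fold changes as they are, so under these only the call could change. Over all these alternatives, 665 log2 fold changes of named members were compared. Of these, 606 kept their direction and side of the threshold. The call was lost by 26 (11 at a variation of 0.2, 13 at 0.4) and gained by 26 (21 at 1.5-fold), and 7 changed sign. Those 7 were of genes near 0. *Mki67* went to 0.00 with TMM factors, 0.47 with the length curve and 0.072 with the GC curve. *Prc1* went to 0.012 with 5 added to each count, 0.018 with the length curve, 0.086 with the GC curve and 0.25 with the level curve. Beyond what fewer genes or a wider assumed spread entail, the cause was not tested.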
